A study of Mus musculus with 4 samples.

Results

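The 10 genes described here encode the AP-1 and EGR immediate-early transcription factors Fos, Fosb, Fosl1, Fosl2, Jun, Junb, Jund, Egr1, Egr2 and Egr3. They were taken by name from the 40213 gene symbols of the series, and all 10 were present. Expression was measured by RNA sequencing in RAW264.7 cells, a mouse macrophage line transformed by Abelson leukemia virus, after 48 h with a hydrogel. The groups were CuNZ@Gel (n = 2 libraries) and Gel (n = 2 libraries), read as the hydrogel with and without CuNZ. Both groups came from 1 cell line and both had gel, so no cells without gel were compared. The treatment text names CuNZ@Gel alone, and group membership rests on the sample titles. The title of the series concerns a sprayable nanozyme hydrogel for diabetic wounds, and the comparison asks what CuNZ changes in macrophages. The labels do not give the replicates as separate cultures, so that each p-value reflects only how far these 4 libraries spread, and that spread may be technical. CuNZ is not spelled out in the labels.

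AP-1 is a dimer that a FOS protein forms with a JUN protein, or that JUN proteins form with each other, through leucine zippers. It binds the DNA element TGANTCA. Many genes of both families and of the EGR zinc-finger factors are switched on within minutes of a signal, before new protein is made. They are switched on by factors that MAP kinases activate. In macrophages they follow growth factor and Toll-like receptor signals, and their mRNAs are short-lived. This does not hold for every member, as Jund is known for its steady expression in resting cells. The libraries were taken at 48 h alone, so no earlier level was compared.

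Library depth was 13718000 to 14881000 recovered reads. Levels are in scaled CPM, which is CPM divided by 1 factor for each library, as the authors deposited them on a log2 scale. Macrophage markers were detected in 9 of 9 cases, with summed levels of 8924 to 9164 scaled CPM in CuNZ@Gel and 5665 to 5832 in Gel. Lyz2 made up most of this sum, with means of 5888 in CuNZ@Gel and 3079 in Gel. Of the 9 markers, 6 rose, Fcgr1 (39.6 ± 0.557 in CuNZ@Gel, 70.5 ± 3.33 in Gel; SD, n = 2) and Cd68 (857 ± 32.8 and 1003 ± 0.984) fell, and Spi1 did not pass the test. Summed markers of fibroblasts, T cells and epithelial cells stayed at or below 1.48 scaled CPM in every library, with Cd3e and Cd3g at 0. The B cell marker Cd79a had 19 and 9 reads in CuNZ@Gel, against 2 and 0 reads in Gel, and Ms4a1 was at 0. Endothelial markers summed to 2.65 and 1.84 scaled CPM in CuNZ@Gel, mostly from Pecam1, against 0.0725 and 0.155 in Gel. The part of these markers in the results was not tested. A gene's lower level in bulk RNA can come from fewer cells that express it or from less RNA in each cell, and these cannot be told apart.

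Of the 10 genes, 6 fell in CuNZ@Gel (Fos, Jun, Junb, Egr1, Egr2 and Egr3), 2 rose (Fosl1 and Fosl2), and Fosb and Jund did not pass the test. Fosl1, which encodes FRA1, rose 27.6-fold. Egr3, Egr2 and Egr1 fell 6.32-fold, 3.29-fold and 2.06-fold. The test was limma on the log2 values of all 11588 tested genes, with Benjamini-Hochberg adjustment over all of them and a threshold of 0.05. It called 67.1% of all tested genes, with 32.2% raised and 34.8% lowered, so a call by itself was common in this comparison. The median log2 change was -0.54 over the 10 members and -0.03 over all tested genes, whose interquartile range was -0.43 to 0.38. Every member had at least 1 scaled CPM in each of the 4 libraries, so that none entered the test through 1 group alone. The groups did not overlap for 9 of 10 members, and for 83.2% of all tested genes.

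**Figure D1:**
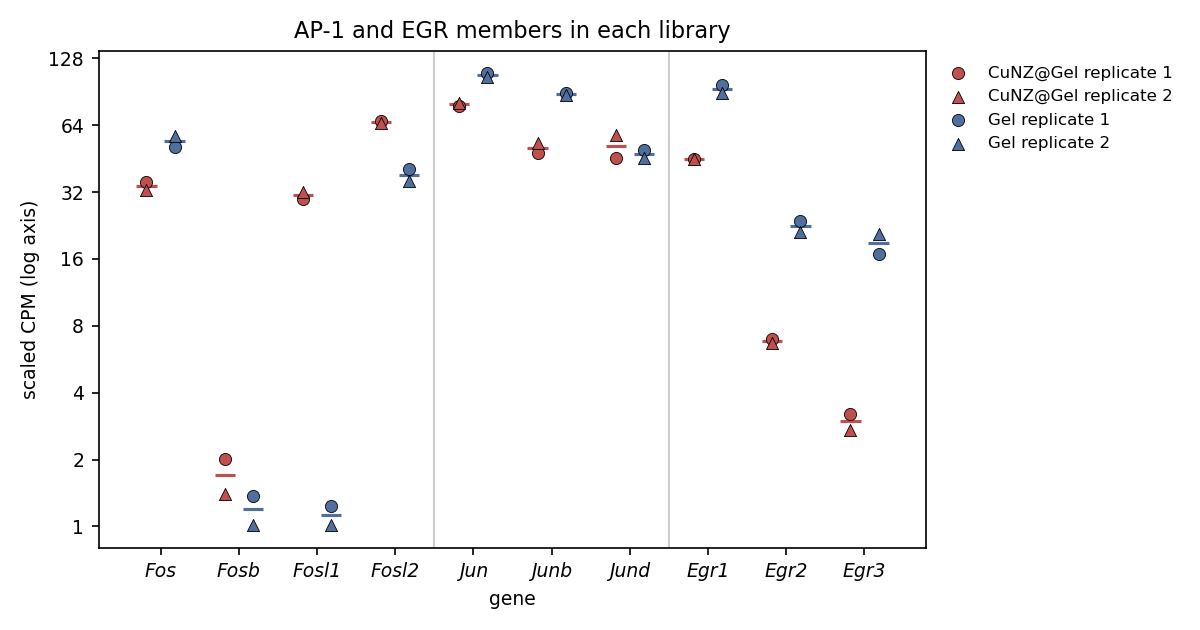
Level of each member in scaled CPM (log axis) in the 2 CuNZ@Gel and 2 Gel libraries, with 1 point for each library and a bar at the group mean. Fosl1 lies near 30 in CuNZ@Gel and near 1 in Gel, all 3 EGR genes are lower in CuNZ@Gel, and only Jund overlaps between the groups.

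Fos, the founding FOS protein and the prototype of the immediate-early class, fell. It had 35.4 and 32.7 scaled CPM in the CuNZ@Gel libraries, against 50.9 and 57.2 in the Gel libraries. Both CuNZ@Gel libraries lay below both Gel libraries, at 1.59-fold lower on average. The log2 change was -0.65 ± 0.09 (SE; limma adjusted p = 1.89e-06). Log2 changes are differences of log2(scaled CPM + 1), a scale on which low genes appear to change less than they do.

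Fosl1 lacks the strong transactivation domain of Fos and still dimerizes with JUN proteins. Its level was 29.7 and 32.2 scaled CPM in CuNZ@Gel, against 1.23 and 1.01 scaled CPM in Gel. These values rest on 472 and 507 recovered reads in CuNZ@Gel, and on 17 and 13 reads in Gel. The gap between the groups was thus far wider than the spread within either of them. The ratio of reads, corrected for library size, was 27.5 with a 95% exact counting interval of 19.1 to 41.0, which covers counting error only. The log2 change was 3.91 ± 0.15 (SE; limma adjusted p = 3.95e-15), the 11th highest of the 11588 tested genes. Ccdc85b, a gene on the opposite strand that overlaps Fosl1 in GENCODE vM21, fell, with 3.28 and 4.57 scaled CPM in CuNZ@Gel and 9.27 and 6.77 in Gel (limma adjusted p = 2.05e-04). Ccdc85b was looked up after the values were seen, because the use of strand in counting is not given in the sources used here.

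Fosl2, which encodes FRA2, the other FOS protein without a strong transactivation domain, rose as well. It had 66.9 and 65.7 scaled CPM in CuNZ@Gel, against 40.6 and 35.8 in Gel. The groups were separate, with a 1.73-fold difference of means and a log2 change of 0.78 ± 0.08 (SE; limma adjusted p = 6.48e-08). Fosb, which like Fos carries a transactivation domain, was low in all 4 libraries. It had 2.02 and 1.40 scaled CPM in CuNZ@Gel, against 1.38 and 1.01 in Gel, on 13 to 32 reads a library. Its log2 change of 0.30, with a 95% interval of -0.14 to 0.73, did not pass the test (limma adjusted p = 0.213). A rise by up to 0.73 on this scale therefore lies within the interval of Fosb.

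**Figure D2:**
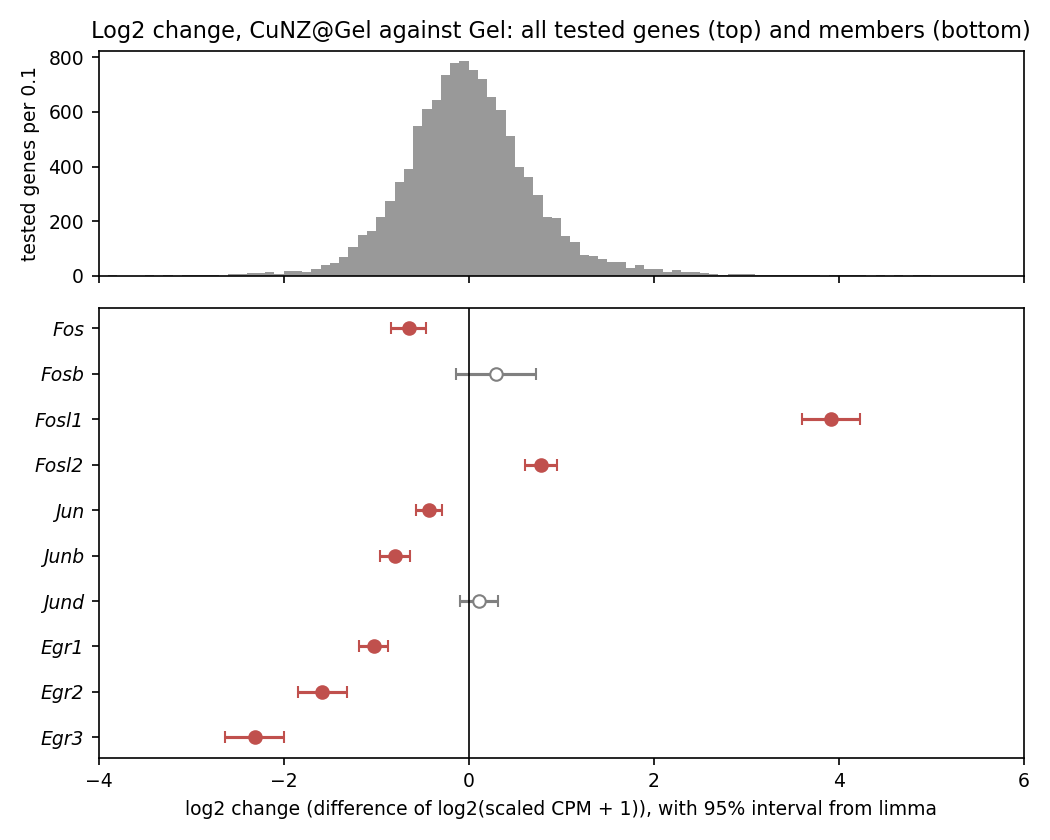
Log2 change of CuNZ@Gel against Gel for all 11588 tested genes (histogram, top) and for each member with its 95% limma interval (points and bars, bottom). Filled points passed an adjusted p of 0.05 and open points did not. Fosl1, at 3.91, lies in the far right tail of all genes, and Egr3, at -2.31, in the left tail.

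Promoter sequence was looked up in the RefSeq promoter table of build GRCm38.p6 for the members other than Egr1, which was not searched. An entry was found for 7 of the 10 members (Fos, Fosb, Fosl2, Jun, Junb, Jund and Egr2) and none for Fosl1 and Egr3. Each entry runs from 250 bases before the transcript start to 50 after it. On both strands the search covered TGANTCA (AP-1), TGACGTCA (the cyclic AMP response element bound by ATF and CREB), its core TGACG, which lies within it, TGACATCA (the JUN and ATF2 element first described in the JUN promoter), GCGNGGGCG (EGR) and the CArG box (SRF). Among all 32851 entries these were held by 7.81%, 1.79%, 20.8%, 3.62%, 5.55% and 1.63%. None of the entries of the 7 members held TGANTCA or TGACGTCA. The FOS family stretches are shown for Fos, which fell, Fosl2, which rose, and Fosb. Their lengths differ, with 120 bases for Fos and 29 around the only match of Fosl2, so they are no like comparison. They are chr12:85473770-85473889 (plus strand) for Fos, chr7:19310056-19310165 (minus strand) for Fosb and chr5:32136383-32136411 (plus strand) for Fosl2, read 5′ to 3′ along the gene, with motif matches in capitals. Fos held TGACG with its first base 66 bases before the start, and again at 129 bases, outside the stretch shown. Fosb held TGACG at 60 and GCGNGGGCG at 50 bases before the start, and Fosl2 held GCGNGGGCG at 79. A match says that the letters are there and not that a factor binds. Any part of these matches in the changes was not tested.
Fos: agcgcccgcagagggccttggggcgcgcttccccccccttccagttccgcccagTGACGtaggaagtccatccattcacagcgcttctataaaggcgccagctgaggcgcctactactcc
Fosb: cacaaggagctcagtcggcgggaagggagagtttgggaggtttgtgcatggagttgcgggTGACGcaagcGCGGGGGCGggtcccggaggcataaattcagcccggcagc
Fosl2: ccggctgcgcGCGGGGGCGgaagggcgcg

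With these changes the makeup of the FOS family RNA was different in the groups. Levels of different genes are compared per kb of the longest coding GENCODE vM21 transcript of each gene. Whether the cells used that transcript was not tested, so sums, shares and orders per kb rest on this choice. The 4 FOS genes summed to 43.5 and 43.2 scaled CPM per kb in CuNZ@Gel, against 31.4 and 33.4 in Gel. Fosl1 took 36.6% and 40.0% of that sum in CuNZ@Gel, against 2.10% and 1.63% in Gel. Fos took 38.6% and 35.9% in CuNZ@Gel, against 76.9% and 81.2% in Gel. The share of Fosl2 was 23.4% ± 0.180 in CuNZ@Gel and 18.1% ± 2.41 in Gel (SD, n = 2), and that of Fosb was 1.04% ± 0.261 and 0.980% ± 0.253. Fos (15.5 to 16.8 scaled CPM per kb) and Fosl1 (16.0 to 17.3) were thus at overlapping levels in CuNZ@Gel, whereas in Gel Fos exceeded each of the others in both libraries. Family sums and shares were not tested.

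**Figure D3:**
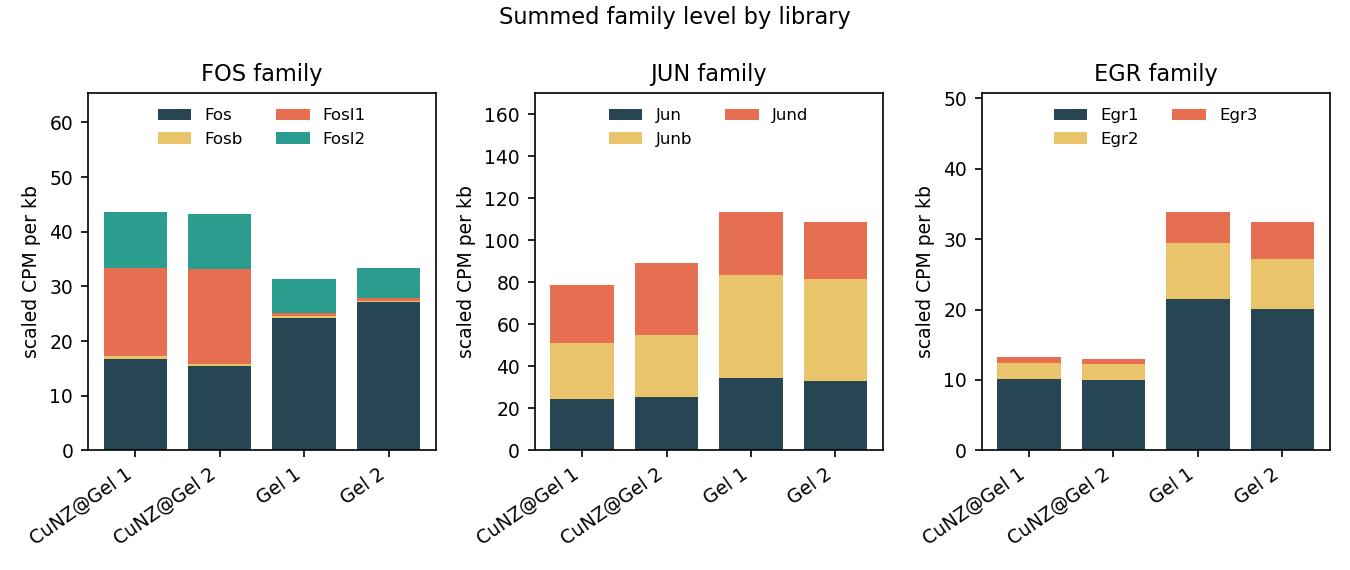
Summed level of the FOS, JUN and EGR families in scaled CPM per kb of transcript in each library, with each gene as a stacked segment. The FOS sum is 43.2 to 43.5 in CuNZ@Gel with a large Fosl1 segment, against 31.4 to 33.4 in Gel, while the JUN and EGR sums are lower in CuNZ@Gel.

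Jun encodes c-JUN, the JUN protein that JNK phosphorylates. It had 78.5 and 80.9 scaled CPM in CuNZ@Gel, against 109.5 and 106 in Gel. The groups were separate but close, with a 1.35-fold lower mean in CuNZ@Gel and a log2 change of -0.43 ± 0.07 (SE; limma adjusted p = 1.59e-05). When the total reads alone set the scale, the median log2 change of all genes was 0.15 in place of -0.03, and that of Jun was -0.24. Junos, the RNA on the opposite strand that overlaps Jun, was looked up after the values were seen. It had 6.37 and 4.76 scaled CPM in CuNZ@Gel and 2.97 and 3.97 in Gel, and it rose (log2 change 0.55 ± 0.18, limma adjusted p = 0.0106).

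Junb, a JUN protein that is a weaker activator than c-JUN, fell more. It had 48.0 and 53.0 scaled CPM in CuNZ@Gel, against 88.9 and 87.7 in Gel. The difference of 1.75-fold exceeded the spread of either pair, and the log2 change was -0.79 ± 0.08 (SE; limma adjusted p = 1.27e-08). Once the length and GC content of transcripts were corrected for, it was -0.36 and still past the test (limma adjusted p = 8.98e-05). Prdx2, a peroxiredoxin gene whose end overlaps that of Junb on the other strand and which was looked up after the values were seen, rose by 0.21 (limma adjusted p = 0.0123).

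Jund, the JUN gene known for its steady expression in resting cells, was the member whose groups overlapped. Its level was 45.7 and 57.9 scaled CPM in CuNZ@Gel, against 49.7 and 45.5 in Gel. The CuNZ@Gel libraries differed from each other by more than the groups did, and the log2 change of 0.11 (95% interval -0.09 to 0.32) did not pass the test (limma adjusted p = 0.321). This value turned on the processing. It passed as raised after the length and GC correction (0.78), with total reads only (0.30) and without CuNZ@Gel replicate 1 (0.28), and it was -0.06 without CuNZ@Gel replicate 2. With 1 CuNZ@Gel library left out, the spread comes from the Gel pair alone, and the lone library is assumed to vary like it. The Jund transcript has the highest GC content of the 10 (67.1%) and is the shortest (1668 bases). Whether Jund differed between the groups is therefore not settled by these libraries.

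The stretches before the starts of Jun and Junb are shown because both genes fell. They are chr4:95052223-95052342 (minus strand) for Jun and chr8:84978749-84978868 (minus strand) for Junb, from the same table and build. Jun held TGACATCA with its first base 45 bases before the start, and Junb held TGACG at 106 bases. The Jund entry held none of the 6 motifs.
Jun: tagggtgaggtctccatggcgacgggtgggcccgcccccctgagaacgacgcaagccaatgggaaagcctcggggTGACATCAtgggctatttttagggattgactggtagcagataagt
Junb: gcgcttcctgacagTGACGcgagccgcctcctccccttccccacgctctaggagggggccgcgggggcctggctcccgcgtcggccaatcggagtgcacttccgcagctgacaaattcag

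The JUN genes summed to 78.6 and 89.4 scaled CPM per kb in CuNZ@Gel, against 113 and 109 in Gel. Junb took 33.3% ± 0.716 of the sum in CuNZ@Gel and 44.0% ± 0.816 in Gel (SD, n = 2). The share of Jund was 36.8% ± 2.79 in CuNZ@Gel and 25.7% ± 0.90 in Gel, and that of Jun was 29.8% ± 2.08 and 30.4% ± 0.0838. JUN RNA exceeded FOS RNA per kb in every library, with sums of 78.6 to 89.4 against 43.2 to 43.5 in CuNZ@Gel, and of 109 to 113 against 31.4 to 33.4 in Gel.

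The EGR genes fell together. Egr1 encodes a zinc-finger factor that responds to growth factors and stress. It had 45.2 and 45.1 scaled CPM in CuNZ@Gel, against 96.6 and 89.8 in Gel. The 2 CuNZ@Gel libraries were nearly equal and lay 2.06-fold below the Gel libraries on average, with a log2 change of -1.03 ± 0.08 (SE; limma adjusted p = 1.86e-10).

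Egr2, also called KROX20, is known for its role in myelinating cells and in the macrophage response to interleukin 4. Its level was 6.99 and 6.66 scaled CPM in CuNZ@Gel, against 23.6 and 21.3 in Gel. The groups were far apart, at a log2 change of -1.58 ± 0.13 (SE; limma adjusted p = 7.38e-10), the 145th lowest of all tested genes. Egr3, a close relative that EGR1 can induce, fell most among the members. It had 3.21 and 2.73 scaled CPM in CuNZ@Gel, against 16.9 and 20.7 in Gel. These values rest on 51 and 43 reads in CuNZ@Gel, and on 233 and 266 reads in Gel. The log2 change was -2.31 ± 0.15 (SE; limma adjusted p = 2.56e-11), the 32nd lowest of all tested genes.

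The EGR sum was 13.1 ± 0.181 scaled CPM per kb in CuNZ@Gel, against 33.1 ± 0.959 in Gel (SD, n = 2). Within it the share of Egr1 was 76.7% ± 0.942 in CuNZ@Gel and 62.7% ± 1.45 in Gel, while that of Egr3 was 5.74% ± 0.582 and 14.4% ± 2.49 (SD, n = 2). The stretch before 1 of the 5 annotated Egr2 starts, chr10:67537749-67537868 (plus strand, GRCm38.p6, RefSeq promoter table), is shown because it held a CArG box. The first base of the box lies 72 bases before the start, with TGACG at 111 bases and, on the other strand, at 55 bases. Of the 5 Egr2 entries, 4 held a CArG box, and 3 of these overlap and share the same one. Egr1 was not searched and Egr3 had no entry. Bases farther upstream than the entries reach were not searched for any member.
Egr2: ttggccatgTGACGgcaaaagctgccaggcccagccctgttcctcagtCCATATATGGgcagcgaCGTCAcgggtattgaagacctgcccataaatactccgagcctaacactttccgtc

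The order of levels per kb of the longest coding transcript differed between the groups. In CuNZ@Gel it ran Jund (31.0 ± 5.17 scaled CPM per kb), Junb (27.9 ± 1.95), Jun (24.6 and 25.4), Fosl1 (16.6 ± 0.924), Fos (16.2 ± 0.921), Fosl2 (10.1 ± 0.136), Egr1 (10.1 ± 0.0151), Egr2 (2.30 ± 0.0789), Egr3 (0.754 ± 0.0868) and Fosb (0.451 ± 0.116; SD, n = 2 for each mean). The libraries of Jund and Junb overlapped, as did those of Fosl1 and Fos and those of Fosl2 and Egr1, so that these neighbours were not set apart. In Gel the order was Junb (48.8 ± 0.460), Jun (33.7 ± 0.851), Jund (28.5 ± 1.80), Fos (25.7 ± 2.10), Egr1 (20.8 ± 1.08), Egr2 (7.57 ± 0.565), Fosl2 (5.85 ± 0.523), Egr3 (4.77 ± 0.687), Fosl1 (0.602 ± 0.0831) and Fosb (0.316 ± 0.0681). No neighbours overlapped there, although the lower Jund library (27.3) and the higher Fos library (27.1) were close. Fosl1 thus stood next to last in Gel and level with Fos in CuNZ@Gel.

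Features of the members' transcripts were set beside those of the tested genes. A single exon was found in 3 of 10 members, all of them JUN genes, against 2.10% of the 10543 tested genes with a coding transcript in GENCODE vM21. The pentamer ATTTA, the core of AU-rich elements that mark mRNAs for decay, was present in the 3′ UTR of 10 of 10 members and of 69.0% of tested genes. The longer TATTTAT, which the decay factor tristetraprolin binds as RNA, was present in 6 of 10 members and in 29.4% of tested genes. The first such site of each of the 6 is shown, with TATTTAT in capitals, as the DNA letters of the GENCODE vM21 transcript. Both members that rose (Fosl1 with 1 site and Fosl2 with 3) held it, as did Fos with 2 sites and Jun with 1, which fell, and the uncalled Fosb and Jund with 1 each. The 4 members without it (Junb, Egr1, Egr2 and Egr3) all fell. Any part of these sites in the changes was not tested.
Fos: tgttttcaattTATTTATtaagatggatt
Fosb: ccacccccagcTATTTATccctttcctgg
Fosl1: agggcagctgcTATTTATtttcctaaaga
Fosl2: aggcacttttcTATTTATcctcttttaag
Jun: ttgcttgtgcaTATTTATaatagcgttcg
Jund: cgattccgcccTATTTATgtttctactcg

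Other bZIP proteins pair with AP-1 or compete for its sites, and 13 of the 16 listed were tested. Of these, 3 rose, 7 fell and 3 did not pass (median log2 change -0.37, against -0.03 over all tested genes). The test thus called 76.9% of them, against 67.1% of all tested genes. Atf3, a stress-induced bZIP factor, averaged 79.6 ± 1.54 scaled CPM in CuNZ@Gel and 144 ± 4.25 in Gel (SD, n = 2). Jdp2, which represses AP-1 as a JUN partner, averaged 34.2 ± 4.63 in CuNZ@Gel and 68.6 ± 4.57 in Gel. Creb1, a factor of the cyclic AMP response, fell by 0.54 on the log2 scale, and Atf7 rose by 0.59. Limma adjusted p for these 4 lay between 6.44e-10 and 4.81e-05. Batf, Batf3 and Maf were at or below 0.145 scaled CPM in every library and were not tested.

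Of the genes listed as upstream of immediate-early transcription (the MAP kinase chain, SRF and its partners, and the receptor gene Csf1r), 28 of 28 were tested. Among them 15 rose, 5 fell and 8 did not pass the test (median 0.23). The 15 include Csf1r (log2 change 0.39), which is also counted above as a macrophage marker. The share called was 71.4%, near the 67.1% of all tested genes, of which 32.2% were raised and 34.8% lowered. Elk3, a ternary complex factor that joins SRF on DNA, averaged 76.3 ± 1.55 scaled CPM in CuNZ@Gel and 41.7 ± 3.55 in Gel (log2 change 0.86). Braf, a kinase at the head of the ERK chain, averaged 59.4 ± 3.99 in CuNZ@Gel and 33.1 ± 4.11 in Gel (0.83), and Map2k4, a kinase that activates JNK, rose by 0.70. Mapkapk2, the p38 target kinase MK2, averaged 222 ± 6.43 in CuNZ@Gel and 333 ± 12.9 in Gel (-0.59). All 4 passed with a limma adjusted p of at most 4.17e-07. Srf, at 27.7 ± 0.632 in CuNZ@Gel and 25.9 ± 0.106 in Gel, did not pass (limma adjusted p = 0.427; named after its value was seen). Under scaling by total reads the list had 19 raised and 3 lowered. The RNA of kinases does not record their activity.

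Among other immediate-early genes 34 of 40 were tested, of which 20 fell, 10 rose and 4 did not pass (median -0.50). Calls made up 88.2% of the tested genes of this list, against 67.1% of all tested genes. The 4 with the smallest p were Plk2, Zfp36l1, Klf4 and Ier2. Klf4, a zinc-finger factor, averaged 6.96 ± 0.682 scaled CPM in CuNZ@Gel and 44.1 ± 1.06 in Gel. Ier2 had 26.8 ± 2.45 in CuNZ@Gel and 95.1 ± 6.26 in Gel, and Zfp36l1, which destabilizes AU-rich mRNAs, had 39.6 ± 0.875 and 139 ± 0.481 (SD, n = 2). Plk2, a polo-like kinase, moved the other way, at 49.0 ± 0.515 in CuNZ@Gel and 5.31 ± 0.747 in Gel. Limma adjusted p for these 4 was at most 2.17e-13. The list thus held genes in both directions, as the members did. Id3, named after its values were seen, is counted among the lowered genes but entered the test through Gel alone (0.567 and 0.444 scaled CPM in CuNZ@Gel, 6.23 and 8.18 in Gel). With a filter of 5 scaled CPM 19 genes of the list were lowered and 10 raised.

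The EGR proteins are held in check by the NAB co-repressors. Nab2, itself an EGR target, averaged 15.6 ± 0.641 scaled CPM in CuNZ@Gel and 57.0 ± 2.27 in Gel, and it fell with the EGR genes (log2 change -1.81 ± 0.10, limma adjusted p = 8.27e-13). Nab1 averaged 122 ± 2.65 in CuNZ@Gel and 96.4 ± 4.15 in Gel and rose (0.34 ± 0.07, limma adjusted p = 1.94e-04). Egr4, the fourth EGR gene, was listed at 0 in all 4 libraries.

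Genes known as AP-1 targets in one cell type or another were tested in 20 of 25 cases. Among them 17 rose, 2 fell and 1 did not pass the test (median 0.81). The share called was 95%, against 67.1% of all tested genes. Spp1, the matrix protein osteopontin, averaged 6275 ± 138 scaled CPM in CuNZ@Gel and 1404 ± 63.4 in Gel. Ccnd1, cyclin D1, averaged 358 ± 3.70 in CuNZ@Gel and 122 ± 7.23 in Gel. Cd44, the hyaluronan receptor, averaged 272 ± 3.21 in CuNZ@Gel and 103 ± 1.63 in Gel, and Mt2, a metallothionein, rose by 1.48 on the log2 scale. Limma adjusted p was at most 5.03e-14 for these 4. The lowered genes, named after their values were seen, were Vegfa (-0.99), a vascular growth factor, and Acp5 (-0.56), an osteoclast phosphatase, and Hbegf did not pass (0.10). Mmp12 (3.09 and 2.79 scaled CPM in CuNZ@Gel, 0.145 and 0 in Gel) and Il1b (2.39 and 3.17 in CuNZ@Gel, 0.218 and 0.311 in Gel), also named after their values were seen, entered the test through CuNZ@Gel alone, so their place among the raised genes supports nothing. With a filter of 5 scaled CPM 14 genes of the list were raised and 2 lowered. All of these genes have other regulators besides AP-1, and the list was drawn up with results of these data known.

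**Figure D4:**
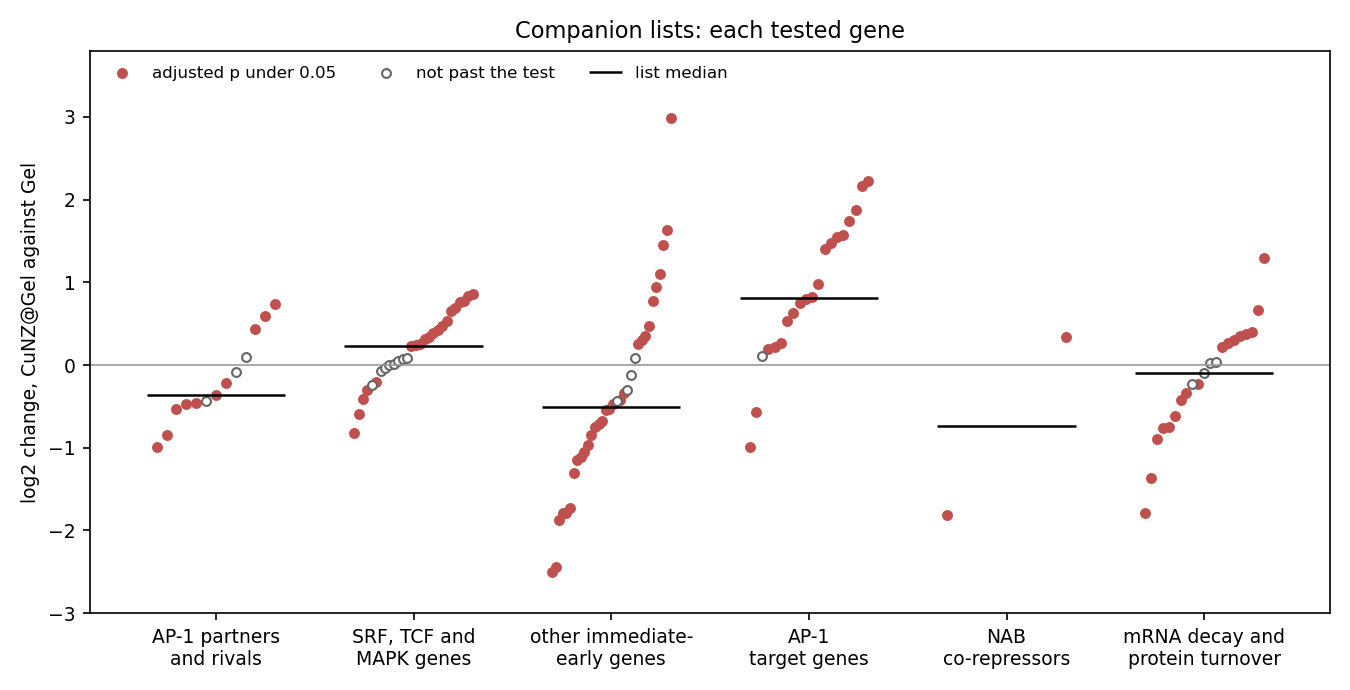
Log2 change of CuNZ@Gel against Gel for each tested gene of the 6 companion lists, ordered by size within a list. Filled points passed an adjusted p of 0.05, open points did not, and bars mark list medians, which run from -0.74 (2 NAB genes) to 0.81 (AP-1 targets).

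Genes that degrade AU-rich mRNAs or the JUN and FOS proteins moved both ways. Among 21 tested of 22, 8 rose, 9 fell and 4 did not pass the test (median -0.09). Calls made up 81.0% of those tested, against 67.1% of all tested genes. Besides Zfp36l1, Hnrnpd, which encodes the AU-rich element binding protein AUF1, averaged 162 ± 3.36 scaled CPM in CuNZ@Gel and 301 ± 12.3 in Gel. Itch, a ubiquitin ligase for JUN proteins, averaged 93.8 ± 7.15 in CuNZ@Gel and 37.9 ± 4.58 in Gel. Det1, which encodes a partner of COP1 in a ubiquitin ligase for JUN, averaged 7.40 ± 0.144 in CuNZ@Gel and 20.7 ± 0.841 in Gel. Limma adjusted p for Hnrnpd, Itch and Det1 was at most 5.64e-09. After the length and GC correction 4 of these genes were raised and 11 lowered.

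The 5 genes whose log2 values over the 4 libraries lay closest to those of Fosl1, the member with the smallest p, were Hmox1, Slc39a4, Procr, Abcc2 and Klra2. Closeness was the Euclidean distance between values centred on each gene's mean, and it ran from 0.117 to 0.303 among 9687 genes compared. Hmox1, heme oxygenase, averaged 1172 ± 61.5 scaled CPM in CuNZ@Gel and 83.3 ± 4.79 in Gel. Procr, the endothelial protein C receptor, averaged 25.3 ± 2.76 in CuNZ@Gel and 0.715 ± 0.0899 in Gel. Slc39a4, Procr, Abcc2 and Klra2 were below 1 scaled CPM in both Gel libraries and entered the test through CuNZ@Gel alone, so that they had to differ. With 4 libraries in 2 groups, closeness mainly records a like difference between the groups.

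The 8 calls among the members held under all 14 alternatives in processing. Fosl1 ranged from 3.84 to 4.74 and Fosl2 from 0.57 to 0.97. Fos ranged from -0.73 to -0.47, Jun from -0.45 to -0.24 and Junb from -0.86 to -0.36. Egr1 ranged from -1.08 to -0.84, Egr2 from -1.71 to -1.41 and Egr3 from -2.64 to -2.15. Fosb did not pass under any of the 13 alternatives that tested it.

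**Figure D5:**
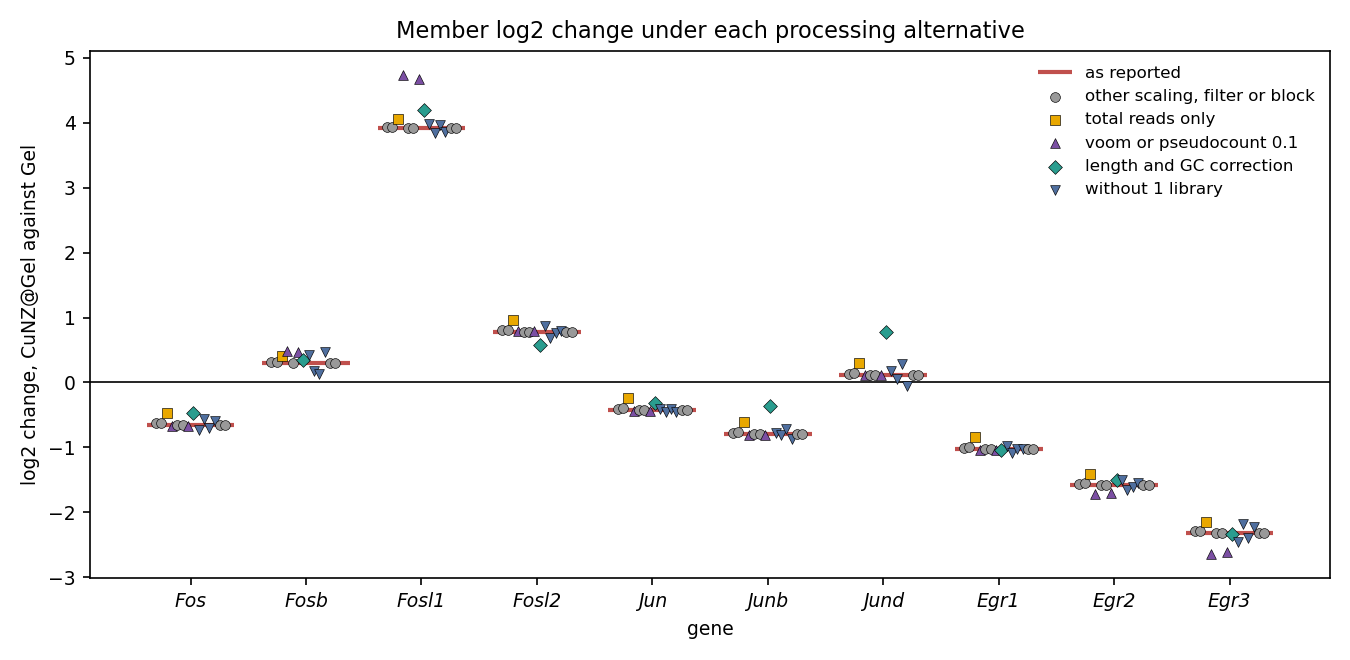
Log2 change of each member as reported (red bar) and under 14 processing alternatives (points by kind of alternative). Jund moves from -0.06 without CuNZ@Gel replicate 2 to 0.78 with the length and GC correction, and the points of each of the 8 called members stay on one side of 0.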

How the data were processed

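Total RNA (TaKaRa RNAiso Plus) went into CORALL RNA-seq V2 libraries, per the labels' protocols. The submitters' processing notes name GATK, Salmon, STAR, fastp and build GRCm39, with no role or order. Not given in the sources used here are versions, settings, annotation, strand use, molecular identifiers and normalization. The authors deposited 1 log2 value per gene and library. From the values, these are log2(scaled CPM + 1): between 92.6% and 93.5% of values up to 1 scaled CPM were whole multiples of 1 step per library within 0.02 reads, which gave the reads and totals (14881000, 14739000, 14732000 and 13718000 for CuNZ@Gel replicates 1 and 2 and Gel replicates 1 and 2, rounded). Tested genes reached 1 scaled CPM in 2 or more libraries. The test was limma 3.58.1 under R 4.3.3, with a variance trend and the group alone as term. The procedure was tested on simulated data. Counting intervals cover counting error only. GENCODE vM21 (GRCm38) gave transcript lengths, GC content and UTRs by symbol, for 95.85% of tested genes; its build differs from that of the files. Named genes were all members, up to 4 genes with the smallest p past the threshold in each companion list, all NAB list genes, and the 5 genes closest to the member with the smallest p (mean of at least 5 scaled CPM). Lists share some genes. The members and lists were chosen with earlier results of these data known. No set test was run.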

Additional observations from a re-analysis of the deposited data

How the results depend on the processing

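Alternatives were 3 other scalings, limma-voom on recovered reads, 2 other filters, a pseudocount of 0.1, a length and GC correction, each library left out, and the replicate number as a block. They changed the side of the threshold or the direction for Jund alone among the members: 0.30 with total reads only, 0.78 with the length and GC correction, and -0.056 to 0.28 with 1 library left out. At a filter of 5 scaled CPM Fosb was not tested. All 294 alternative values of the 21 companion genes named by rule kept direction and side of the threshold. Lowered genes of the MAP kinase and SRF list numbered 3 with total reads only and 3 with no filter, against 5, and 3 to 5 with 1 library left out. Raised genes of the decay and turnover list numbered 5 with no filter and 4 with the length and GC correction, against 8, and 5 to 8 with 1 library left out. The cause was not tested. Of all genes, 6515 to 7064 were called with 1 library left out, against 7770; in these fits the lone library of a group is assumed to vary like the other group. The replicate numbers are no stated pairing: same-numbered deviations correlated at -0.116 across genes. With the replicate number as a block 7489 genes were called, with 2 members raised and 6 lowered as before. With a crossed block, added after seeing the data, 8370 were called. Depth limits Fosb most, on 13 to 32 reads a library.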
